A study of Sus scrofa with 32 samples.

Results

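Blood CD4 T cells were chosen by the UMI counts (unique molecular identifiers, one for each captured mRNA) of 6 genes in droplet barcodes of peripheral blood mononuclear cells (PBMCs). A cell held at least 1 UMI of CD3E and of CD4 and no UMI of CD8B, TRDC, CD79B or SIRPA, and its barcode passed the filters on depth, on at least 550 genes and on mitochondrial share given with the processing. CD3E encodes a chain of the T cell receptor complex, and the excluded genes mark CD8 αβ T cells (CD8B), γδ T cells (TRDC), B cells (CD79B) and myeloid cells (SIRPA). The gate held 567 of the 13243 PBMCs that passed the filters, and 48629 cells passed in the whole series. It held 208 of 6443 cells in pig 1 (3.23%, exact Clopper-Pearson 95% interval 2.81 to 3.69) and 359 of 6800 cells in pig 2 (5.28%, 4.76 to 5.84). All intervals cover counting error only, not the difference between animals.

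CD4 binds MHC class II and marks helper and regulatory T cells. In most mammals CD4 and CD8 are kept apart on mature T cells, but in pigs many blood CD4 T cells also carry CD8α, the product of CD8A, without the CD8β chain, and such cells are known as activated or memory helper cells. CCR7 is the chemokine receptor that brings naïve and central memory T cells into lymph nodes, and it is low on effector cells. The transcription factors TCF7 and LEF1 maintain the naïve state, whereas TBX21 drives the type 1 program that includes granzymes and CCL5. CD4 lies on chromosome 5 at 63892129 to 63918547, CD8A on chromosome 3 at 57999228 to 58029768, CCR7 on chromosome 12 at 21857286 to 21869211 and TCF7 on chromosome 2 at 136422740 to 136456323 (Sscrofa11.1).

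Both animals were mixed-breed pigs of 7 weeks, pig 1 a female and pig 2 a male, and the labels name no treatment. Each gave 1 PBMC library, isolated in density gradient tubes, and 3 ileal libraries, which were wall that held Peyer's patches (PP), wall that lacked them (non-PP) and whole ileum, all released by shaking in reducing and chelating buffers and by warm enzyme digestion, then enriched on Percoll and by removal of dead cells. The pig was the replicate (n = 2), and in fits without the pig as a block p-values rest on the spread between the summed samples. The PBMC libraries held 36465389 UMIs in pig 1 and 38240907 in pig 2. The CD4 T cells had a median of 3257.5 and 3446 UMIs, and their counts summed to 901596 and 1623594 UMIs.

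Some libraries and cells stood apart and bear on the results below. The whole ileum library of pig 1, labelled female, held Y-linked genes at 207 CPM (UMIs of a gene or list scaled to 1000000 UMIs in the library or cells summed), against 0.161 and 0.224 in the PP and non-PP libraries of that pig and 226 in whole ileum of pig 2. Ileal values below therefore come from PP and non-PP libraries, and whole ileum entered only 1 alternative of the comparison of blood with ileum. A total of 66 barcodes passed the filters in both PBMC libraries, and none of them was a CD4 T cell in both. HBB, the β-globin of red cells, made 15469 of the CD4 T cell UMIs in pig 1, of which 14543 lay in 5 cells, and 4876 in pig 2, of which 4038 lay in 2 cells. A doublet score from simulated mixtures marked 4 of the 208 and 7 of the 359 cells, none of them one of these 7 HBB-rich cells.

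The label was checked against T cell genes that the gate had not used. All 8 listed T cell markers (CD3D, CD3G, CD247, CD2, CD5, CD6, CD28 and LCK) were detected in both pigs and summed to 2723 and 2682 CPM, against 96.1 and 109 CPM in B cells of the same libraries. The 9 B cell markers summed to 27.7 and 34.5 CPM, with JCHAIN the most abundant at 19.96 and 20.3 CPM and CD79A at 0 in both pigs, against 2775 and 3007 CPM in B cells. The 10 monocyte markers summed to 128 and 130 CPM, led by LYZ (47.7 and 45.6 CPM). The 6 dendritic cell genes measured came to 13.3 and 17.9 CPM, led by IRF8 (11.09 and 16.0 CPM), with FLT3, XCR1 and FCER1A at 0 in both pigs. Platelet markers came to 84.3 and 215 CPM, led by ITGA2B in pig 1 and PPBP in pig 2. The natural killer cell list reached 1770 and 1614 CPM, of which FCGR3A, the receptor CD16, made 1311 and 1245 CPM. The rest of that list summed to 459 and 369 CPM, against 195 and 275 CPM in B cells. KLRF1 and NCAM1 were at 0, but both were also at 0 in SIRPA+ cells and in B cells of pig 1. FCGR3A stood at 335 and 438 CPM in B cells and at 4290 and 4649 CPM in SIRPA+ cells, which express it. The γδ T cell genes other than TRDC came to 162 and 166 CPM, led by ID3, which αβ T cells also express. In B cells they came to 286 and 278 CPM, and SOX13 was at 0 in both cell types.

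CD4 mRNA was sparse. Among the CD4 T cells, 153 of 208 (73.6%) and 274 of 359 (76.3%) held only 1 CD4 UMI. Before the exclusions 233 and 410 cells held CD3E and CD4, and CD79B alone or with other genes removed 10 and 26 of them, TRDC 10 and 12, CD8B 8 and 12, and SIRPA 1 and 3. Cells just outside the gate, with CD3E but no CD4, CD8B or TRDC UMI, numbered 1911 and 1151. As a description, CD40LG, the helper ligand for CD40, stood at 77.5 and 120 CPM in cells with 1 CD4 UMI and at 90.9 and 85.8 CPM in cells with 2 or more, against 15.4 and 57.6 CPM in those CD4- cells. CCL5 differed between these classes in pig 1, at 4229 and 1609 CPM with 1 CD4 UMI and 1451 and 1533 CPM with more. In the CD4- cells CCL5 stood at 18377 and 6838 CPM. CD8A was detected in 62.0% and 39.0% of the CD4- cells, against 24.2% and 18.2% of cells with 1 CD4 UMI and 34.5% and 16.5% of cells with more.

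About 1 in 4 blood CD4 T cells of pig 1 and fewer in pig 2 carried CD8A, the gene of CD8α. The gate itself had admitted only cells with no CD8B UMI. CD8A was detected in 56 of 208 cells of pig 1 (26.9%, 21.0 to 33.5) and in 64 of 359 cells of pig 2 (17.8%, 14.0 to 22.2). In B cells of the same blood the share was 4.87% and 5.97%, at median depths of 3534 and 4561 UMIs per cell, and in SIRPA+ cells, with deeper medians of 7311.5 and 8131 UMIs, it was 4.29% and 2.49%. The CD4 T cells thus lay above cells that should lack the gene in both pigs. After every cell was thinned at random to the depth minimum of the filter, CD8A remained in 10.1% and 6.41% of CD4 T cells against 1.84% and 1.47% of B cells. CD8B+ T cells, in which CD8α pairs with CD8β, carried it in 83.0% and 90.8% of cells.

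CCR7 was found in about every other blood CD4 T cell. It was detected in 101 of 208 cells of pig 1 (48.6%, 41.6 to 55.6) and in 197 of 359 cells of pig 2 (54.9%, 49.6 to 60.1), and after thinning in 26.4% and 31.2%. In SIRPA+ cells a CCR7 UMI was found in 0 of 70 cells, which by a floor of 3 counts allows a share of cells with a UMI of up to 4.29%, and in 0.498% of 201 cells. B cells, which also use CCR7 to enter lymph nodes, carried it in 13.7% and 21.9%, and CD8B+ T cells in 18.2% and 14.0%. A cell without a CCR7 UMI is not shown to lack the receptor, so CCR7- and CD8A- below mean only that no UMI was counted.

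**Figure D1:**
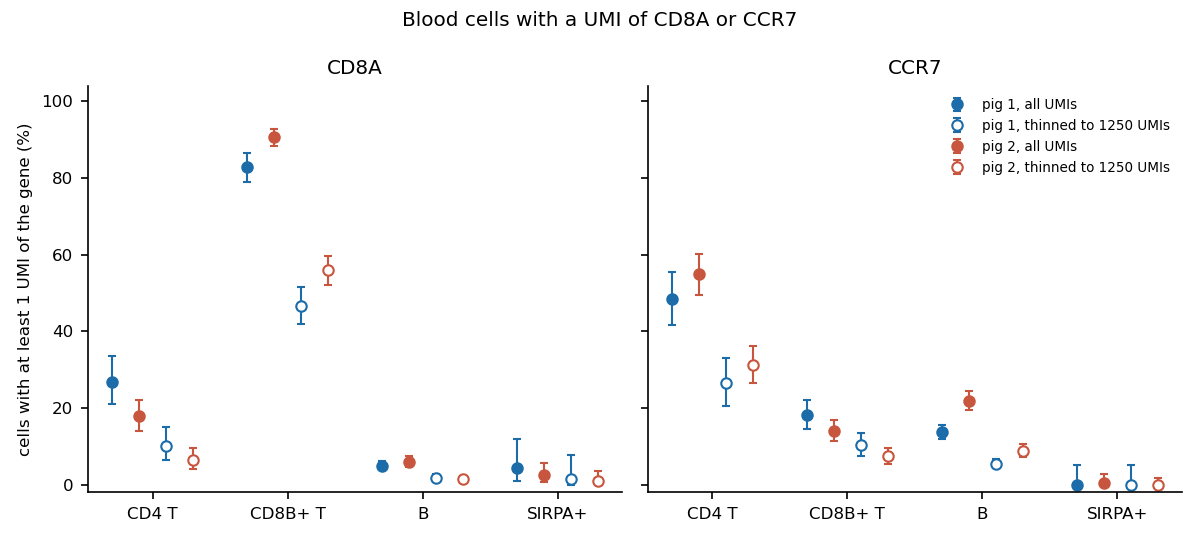
Percentage of blood cells (y axis) with at least 1 UMI of CD8A or CCR7 in CD4 T cells, CD8B+ T cells, B cells and SIRPA+ cells (x axis) of pig 1 (blue) and pig 2 (red), from all UMIs (filled) and after thinning each cell to the depth minimum (open), with exact 95% intervals. CD8A in CD4 T cells (26.9% and 17.8%) lay above B cells (4.87% and 5.97%) and below CD8B+ T cells, and CCR7 was highest in CD4 T cells.

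Cells with CD8A carried CCR7 less often than cells without it in each pig. CCR7 was detected in 13 of 56 CD8A+ cells of pig 1 (23.2%, 13.0 to 36.4) against 88 of 152 CD8A- cells (57.9%, 49.6 to 65.8), and in 19 of 64 CD8A+ cells of pig 2 (29.7%, 18.9 to 42.4) against 178 of 295 CD8A- cells (60.3%, 54.5 to 66.0). The intervals of the paired classes did not overlap in either pig, although CD8A+ cells were the deeper class, with median UMIs of 4452.5 and 4739 against 3114 and 3365. After thinning the shares were 9.52% of 21 and 21.7% of 23 CD8A+ cells against 28.3% of 187 and 31.8% of 336 CD8A- cells, with wide intervals in the CD8A+ class that reached into those of the CD8A- class. With 2 pigs no test of these shares between animals was made.

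The share with CCR7 went down step by step with the number of CD8A UMIs. In pig 1 it was 57.9% with no CD8A UMI, 25.0% of 40 cells with 1 UMI, 22.2% of 9 cells with 2 and 14.3% of 7 cells with 3 or more, and in pig 2 it was 60.3%, 34.9% of 43 cells, 23.1% of 13 cells and 1 of 8 cells. TCF7 followed a like order, apart from the last step in pig 1, at 277, 103, 79.3 and 87.7 CPM in pig 1 and at 279, 134, 30.5 and 23.1 CPM in pig 2. CCL5, a chemokine of effector T cells, went the other way, at 2611, 3677, 4005 and 10638 CPM in pig 1 and at 1060, 2703, 3876 and 7001 CPM in pig 2. The upper steps rest on 7 to 13 cells each, and the order is given as a description.

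The genes that set CD8A+ apart from CD8A- blood CD4 T cells were compared next, on UMI counts summed per pig and class (2 against 2 sums). A gene was called at an adjusted p under 0.05 in edgeR's quasi-likelihood test, and counted as higher or lower where the log2 difference also passed 1. TCF7 alone was called. It stood at 97.9 CPM in CD8A+ cells of pig 1 and 102.1 CPM in those of pig 2, against 277 and 279 CPM in CD8A- cells. The classes did not overlap, and the log2 difference was -1.61 (SE 0.190, edgeR adjusted p = 0.0482). Of 4352 genes tested, 0 were higher (0%) and 1 lower (0.023%), while 257 and 308 had an unadjusted p under 0.05, and DESeq2 called 7 higher and 8 lower. With RLE size factors in place of TMM scaling, and on thinned counts, no gene was called.

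As both classes came from the same animals, the comparison was also fitted with the pig as a block. Then 84 genes were higher (1.93%) and 79 lower (1.82%) in CD8A+ cells. The blocked p-values can rest on a smaller spread than that between the pigs. HLA-DRA differed by log2 -0.136 in pig 1 and 1.10 in pig 2, yet its blocked SE was 0.148. DESeq2 with the block gave 14 higher and 10 lower. On thinned counts, with the classes drawn again so that only 21 and 23 cells were CD8A+, the blocked fit gave 17 and 8, of which 5 and 3 were among the calls over all UMIs, where 23 and 26 of these could still be tested. Without the cells that held a UMI of TOP2A or UBE2C, genes of mitosis, the blocked counts were 22 higher and 16 lower, of which 14 and 16 were among the calls over all cells. With CD3E and CD4 each required at 2 UMIs or more, the blocked fit called none. In the fit without a block, 10 genes were higher and 15 lower once the 7 HBB-rich cells were left out.

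Genes of naïve and recirculating T cells were among those lower in CD8A+ cells. Of 12 tested, 1 was called without the block and 7 with it, all lower, among them ID3, IL7R, LEF1, PIK3IP1, S1PR1 and TCF7, where 0.023% of all genes were called lower at any size without the block and 5.49% with it. The list's median log2 difference was -1.04, against -0.0188 over all genes tested. LEF1 stood at 70.3 and 77.3 CPM against 172 and 163 CPM in CD8A- cells (log2 -1.32 with the block, SE 0.216, edgeR adjusted p = 1.43e-07). IL7R, the receptor for the survival cytokine IL-7, stood at 36.7 and 41.4 CPM against 106 and 145 CPM (log2 -1.84, SE 0.266, edgeR adjusted p = 1.12e-09 with the block). Each was lower in both pigs with no overlap, but neither was called by edgeR without the block (edgeR adjusted p = 0.0533 for each). KLF2, the factor that drives S1PR1, the exit receptor of lymph nodes, was at 453 and 566 CPM against 451 and 438 CPM and was not called in either fit.

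Type 1 and cytotoxic genes went mostly the opposite way with the block. Of 20 tested none was called without the block, and with it 13 were called higher and 1 lower (CTSW), where 5.03% of all genes were called higher and 5.49% lower. The median log2 difference was 0.97. CX3CR1, the fractalkine receptor of effector cells, stood at 110 and 135 CPM in CD8A+ cells against 52.2 and 28.5 CPM (blocked log2 1.58, SE 0.249, edgeR adjusted p = 3.46e-08). TBX21 stood at 91.7 and 88.3 CPM against 38.3 and 30.1 CPM (blocked log2 1.28, SE 0.282, edgeR adjusted p = 2.44e-04). GNLY, granulysin, was at 4578 and 2816 CPM against 2029 and 698 CPM, and NKG7, a cytotoxic granule protein, at 523 and 823 CPM against 315 and 313 CPM. In B cells of the same libraries GNLY came to 552 and 674 CPM and NKG7 to 50.1 and 59.0 CPM, so that the GNLY level of CD8A- cells of pig 2 was close to that of cells that should lack it. GZMA, at 471 and 1049 CPM against 178 and 246 CPM, is uncertain because the annotation holds 2 entries of that name.

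The antigen-experience genes that were called lay mostly on the CD8A+ side. None was called without the block, and with it 8 of 17 were called higher, where 5.03% of all genes were at any size, and 1 lower, where 5.49% were. The lower gene was CD69, an early activation marker and retention signal, and the median log2 difference was 0.41. S100A4, a calcium-binding protein of memory T cells, was at 1495 and 1494 CPM against 862 and 946 CPM (blocked log2 0.58, SE 0.124, edgeR adjusted p = 1.10e-04), and ITGB1, the β1 integrin chain, at 309 and 279 CPM against 190 and 198 CPM (blocked log2 0.44, SE 0.155, edgeR adjusted p = 0.0432). HLA-DRA, the MHC class II α chain, was detected in 58.9% and 65.6% of CD8A+ cells against 31.6% and 34.6% of CD8A- cells. Its level showed no such order in pig 1, at 223 CPM against 245 CPM, and stood at 439 against 204 CPM in pig 2, so no order is read from the shares. With the block HLA-DRA was called higher (log2 0.46, SE 0.148, edgeR adjusted p = 0.0250), and of the 4 other MHC class II genes tested none was called in either fit. CTLA4, an inhibitory receptor, was at 39.8 and 35.9 CPM against 15.7 and 12.7 CPM (blocked log2 1.28, SE 0.456, edgeR adjusted p = 0.0496), and CCR2, a receptor for inflammatory chemokines, at 42.8 and 55.2 CPM against 6.96 and 19.0 CPM (blocked log2 1.64, SE 0.405, edgeR adjusted p = 1.33e-03).

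**Figure D2:**
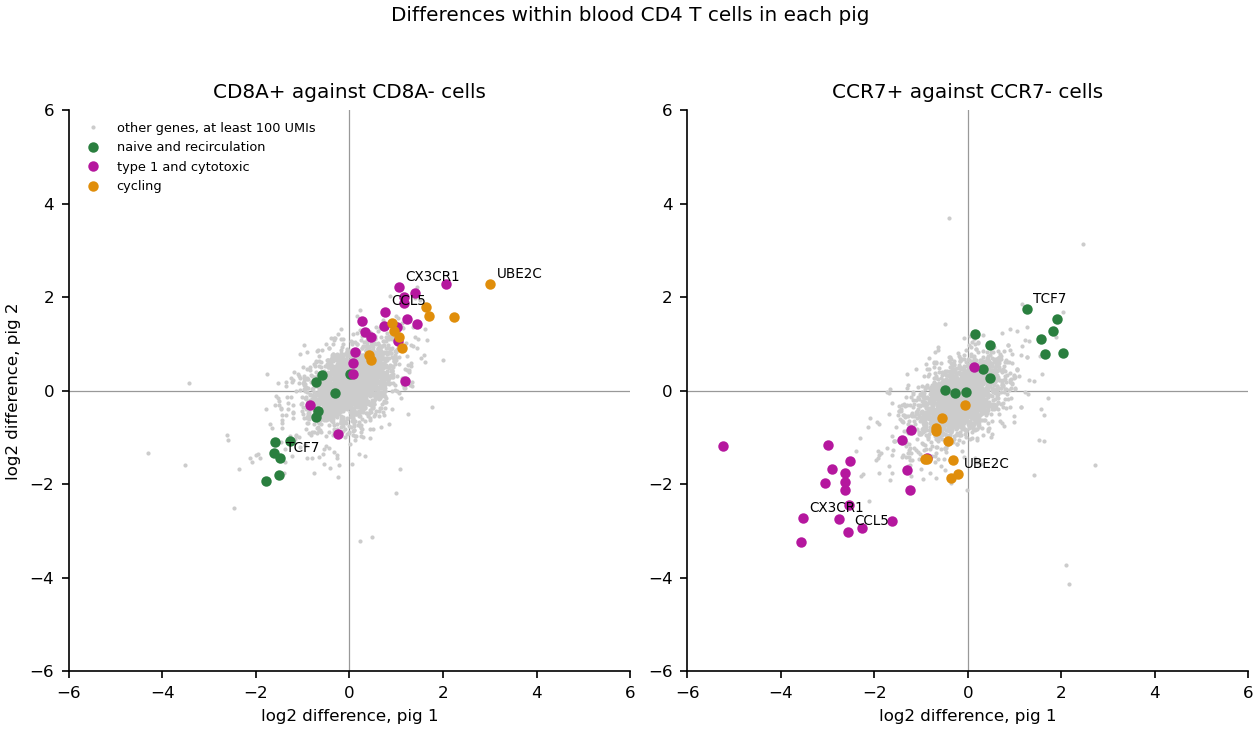
Log2 difference between CD8A+ and CD8A- (left) and between CCR7+ and CCR7- (right) blood CD4 T cells in pig 1 (x axis) and pig 2 (y axis), for each gene with at least 100 UMIs (grey) and for 3 listed gene groups (colours). Type 1 and cytotoxic genes lie mostly at the upper right on the left and at the lower left on the right, and naïve genes such as TCF7 lie opposite to them.

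Most of the 10 largest rises in the blocked fit were genes of the cell cycle. UBE2C, a ubiquitin-conjugating enzyme of mitosis, stood at 205 and 257 CPM in CD8A+ cells against 24.4 and 52.3 CPM (blocked log2 2.35, SE 0.210, edgeR adjusted p = 2.56e-25), and TOP2A, the topoisomerase of dividing cells, at 159 and 199 CPM against 33.1 and 65.8 CPM (blocked log2 1.64, SE 0.214, edgeR adjusted p = 7.12e-12). Of the 10 cycling genes 9 were called higher with the block, where 5.03% of all genes were, and none without it, and the median log2 difference was 1.01. Among the 10 largest blocked rises, KIF11, DLGAP5, KIFC1, KPNA2, CENPF and TPX2 also serve mitosis. Cells with a TOP2A or UBE2C UMI made 15 of 56 (26.8%) and 14 of 64 (21.9%) CD8A+ cells, against 18 of 152 (11.8%) and 24 of 295 (8.14%) CD8A- cells, with intervals that overlapped in pig 1 and not in pig 2. They were deep, with median UMIs of 8208 and 8355 in the CD8A+ class against 3984 and 4122 in CD8A+ cells without such a UMI. After thinning, TOP2A was found in 9.52% and 4.35% of CD8A+ cells against 4.81% and 2.38% of CD8A- cells, which is 2 and 1 cells in the CD8A+ class.

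Markers of other cells moved with the split as well. The monocyte list summed to 48.9 and 80.1 CPM in CD8A+ cells against 172 and 144 CPM in CD8A- cells, led by CST3 in the former and LYZ in the latter, and with the block AIF1 and LYZ were called lower among the 3 tested, as were HCST and TYROBP of 4 natural killer cell genes and PPBP of 2 platelet genes, where 5.49% of all genes were called lower at any size. CD68 and S100A8 were at 0 in CD8A+ cells of both pigs and also in CD8A- cells of pig 1. HBB stood at 25830 and 1115 CPM against 12220 and 3545 CPM, with opposite order in the pigs. The part of such RNA in the CD8A difference was not tested beyond leaving out the HBB-rich cells.

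Effector and naïve genes were among the calls that were made without the TOP2A and UBE2C cells. The blocked calls higher in CD8A+ cells then included GZMB, PRF1, GNLY, NKG7, CCL5, CX3CR1, TBX21, FASLG, ADGRG1, HOPX and LGALS1, and those lower included TCF7, LEF1, IL7R, ID3, AHI1 and CDKN1B. Genes of chromosome segregation were still called higher, with blocked log2 differences of 2.38 for DLGAP5, 1.51 for TPX2 and 1.27 for SMC2. Of the 84 and 79 genes called over all cells, 45 and 64 could still be tested. A further difference was broad and small. Of 58 ribosomal protein genes 43 were called lower in CD8A+ cells with the block, where 5.49% of all genes were, and none without it, with a median log2 difference of -0.51.

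**Figure D3:**
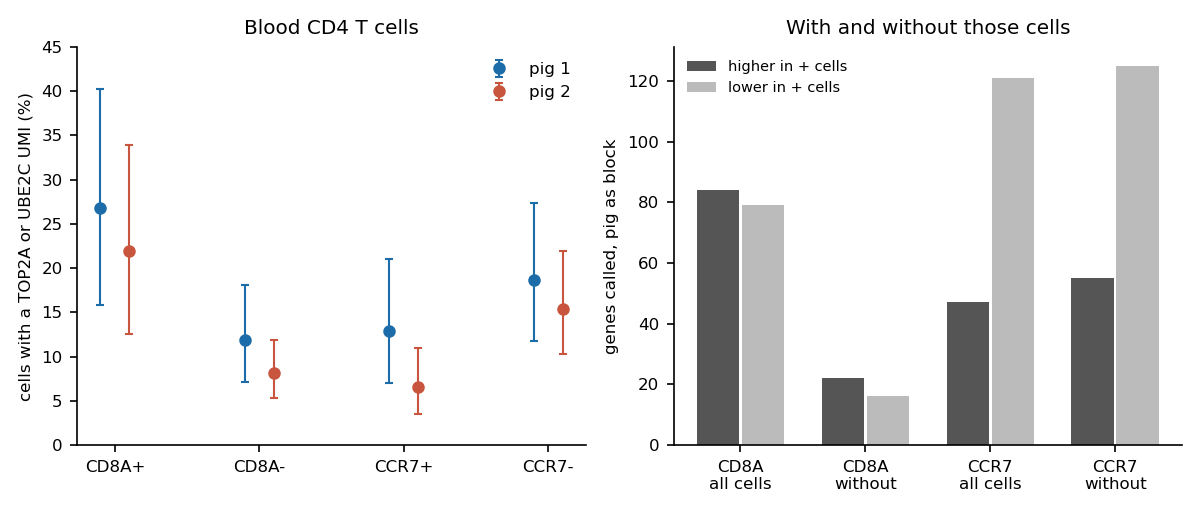
Left, percentage of blood CD4 T cells (y axis) with a TOP2A or UBE2C UMI by CD8A and CCR7 class in pig 1 (blue) and pig 2 (red) with exact 95% intervals, with 26.8% and 21.9% of CD8A+ cells, 11.8% and 8.14% of CD8A- cells and 12.9% and 6.599% of CCR7+ cells. Right, number of genes called with the pig as a block with all cells and without those cells, which went from 84 higher and 79 lower to 22 and 16 for CD8A and from 47 and 121 to 55 and 125 for CCR7.

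Splitting the same cells by CCR7 gave more calls than CD8A without the block. Without the block 8 of 5014 genes were higher (0.16%) and 20 lower (0.399%) in CCR7+ cells, and with the block 47 were higher (0.937%) and 121 lower (2.41%). Median depths of the classes lay close together, at 3233 and 3516 UMIs in CCR7- cells and between 3055 and 3534.5 UMIs in cells with CCR7. On thinned counts 2 were higher and 8 lower, and when CD3E and CD4 were each required at 2 UMIs, 0 and 1.

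Some naïve genes were called higher in CCR7+ cells. TCF7 stood at 298 and 368 CPM against 124 and 109 CPM in CCR7- cells (log2 1.69, SE 0.207, edgeR adjusted p = 0.0152). LEF1 stood at 210 and 204 CPM against 58.4 and 83.2 CPM (log2 1.67, SE 0.244, edgeR adjusted p = 0.0283), and ID3, an inhibitor of E proteins, at 138 and 145 CPM against 35.9 and 49.7 CPM (log2 1.85, SE 0.268, edgeR adjusted p = 0.0283). The classes did not overlap for any of the 3 genes. Of 13 naïve genes 3 were called higher without the block and 6 with it, none lower, with a median log2 difference of 0.96 against 0.0046 over all genes, where 0.16% of all genes were called higher at any size without the block and 3.37% with it. Further genes higher in CCR7+ cells were ANGPT2, a vascular growth factor at 92.0 and 103 CPM against 15.7 and 11.2 CPM, FADS3 and PLAC8.

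In CCR7- cells the type 1 genes stood out. Of 21 entries tested, 7 were called lower in CCR7+ cells without the block and 18 with it, where 0.399% and 3.69% of all genes were, and 1 (CTSW) was called higher with it. Both entries named GZMA were counted among the 21 and among the 18. The median log2 difference was -2.07. CX3CR1 was at 10.95 and 13.4 CPM in CCR7+ cells against 137 and 91.9 CPM in CCR7- cells (log2 -2.98, SE 0.343, edgeR adjusted p = 0.0150). TBX21 was at 15.3 and 15.9 CPM against 101 and 70.8 CPM (log2 -2.25, SE 0.329, edgeR adjusted p = 0.0283). CCL5 was at 964 and 352 CPM against 5654 and 2846 CPM (log2 -2.54, SE 0.443, edgeR adjusted p = 0.0491). B cells, which should lack CCL5, held 541 and 317 CPM, near the level of the CCR7+ cells in pig 2 and below it in pig 1. GZMB, granzyme B, was at 153 and 354 CPM against 1150 and 1132 CPM and NKG7 at 110 and 176 CPM against 678 and 682 CPM.

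CCR3, known as the eotaxin receptor of eosinophils, had the largest fall of the genes named, at 4.38 and 2.44 CPM in CCR7+ cells against 67.4 and 37.3 CPM in CCR7- cells (log2 -3.75, SE 0.581, edgeR adjusted p = 0.0374). Of 17 antigen-experience genes 3 were called lower without the block (ITGB1, S100A6 and S100A11) and 8 with it, where 0.399% and 3.69% of all genes were, and CD69 called higher with it. ITGB1 stood at 136 and 123 CPM against 333 and 311 CPM, and S100A11 at 160 and 148 CPM against 789 and 521 CPM. FCGR3A stood at 752 and 766 CPM against 1885 and 1733 CPM (log2 -1.09, SE 0.168, edgeR adjusted p = 0.0374), while the other natural killer cell genes tested were not called. KLRF1 and NCAM1 were at 0 in both classes, as in SIRPA+ cells and CD8B+ T cells. Of 58 ribosomal protein genes 49 were called higher in CCR7+ cells with the block and none without it (median log2 0.48), where 3.37% of all genes were called higher with the block. Of 10 cycling genes 4 were called lower with the block and none without it (median log2 -0.72), where 3.69% of all genes were called lower with it.

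With the cells split by both genes, TCF7 was highest in cells with CCR7 alone and lowest in cells with CD8A alone. TCF7 stood at 356 and 377 CPM in CD8A-CCR7+ cells, 162 and 141 CPM in CD8A-CCR7- cells, 129 and 284 CPM in CD8A+CCR7+ cells and 80.7 and 49.8 CPM in CD8A+CCR7- cells. CX3CR1 was lowest in the first of these classes and highest in the last, at 5.88 and 6.78 CPM, 119 and 59.2 CPM, 25.8 and 74.0 CPM, and 157 and 153 CPM. The CD8A+CCR7+ class held only 13 and 19 cells, and for both genes the ratio between the pigs was largest there. Whether the CD8A difference depended on CCR7 was tested as an interaction over the 8 sums, and edgeR called 0 of 3348 genes, with 111 at an unadjusted p under 0.05 and 0 called by DESeq2. On simulated counts that edgeR test recovered 6 of 99 genes changed by log2 2, and 55 of 99 with the block. So 0 calls do not show that the difference was alike in CCR7+ and CCR7- cells. With the pig as a block edgeR again called 0, with 157 at an unadjusted p under 0.05, while DESeq2 called S100A6, and edgeR without the TOP2A and UBE2C cells called CCL5. Within CCR7- cells alone the CD8A difference gave no call with or without the block. Within CCR7+ cells it gave none without the block and 11 higher and 4 lower with it.

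**Figure D4:**
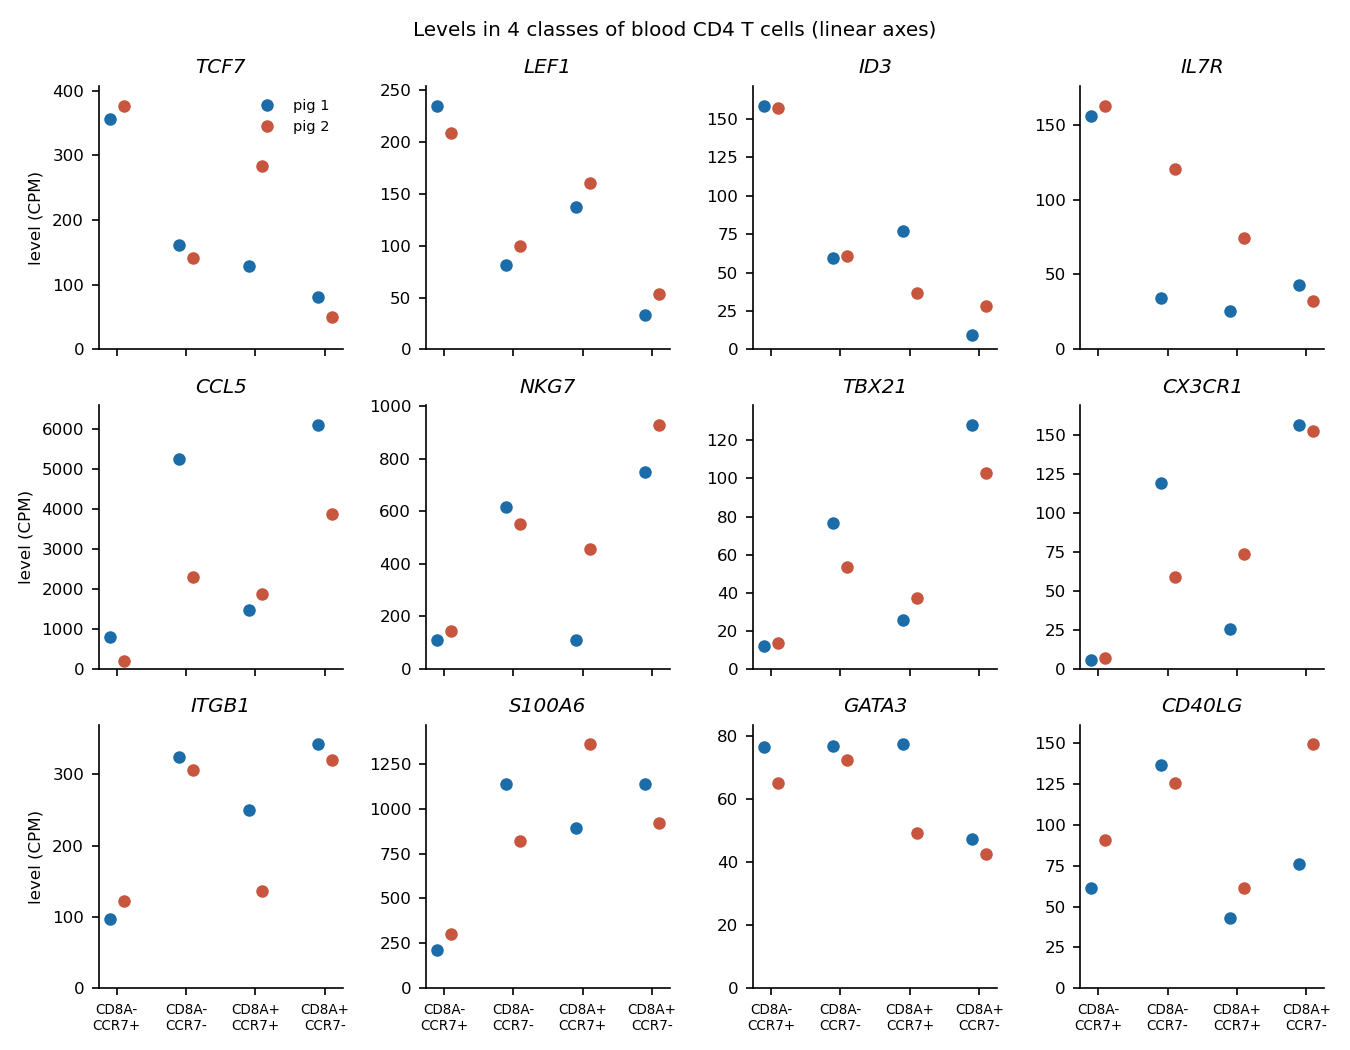
Level in CPM (y axes, linear, from 0) of 12 genes in the 4 classes of blood CD4 T cells by CD8A and CCR7 UMIs (x axis) in pig 1 (blue) and pig 2 (red). TCF7 and LEF1 were highest in CD8A-CCR7+ cells and TBX21 and CX3CR1 highest in CD8A+CCR7- cells in both pigs.

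Regulators of helper subsets were detected unevenly. GATA3, the regulator of type 2 cells that all T cells also use, was detected in 22.6% and 23.7% of blood CD4 T cells, against 0.494% and 0.551% of B cells, and it was called in neither the CD8A nor the CCR7 comparison. TBX21 was detected in 16.8% and 14.2%, with 35.7% and 34.4% of CD8A+ cells against 9.87% and 9.83% of CD8A- cells, although after thinning it was left in 0 of 21 and 8.70% of 23 CD8A+ cells against 7.49% and 4.17% of CD8A- cells. B cells, which can express TBX21, carried it in 12.8% and 13.6%, and SIRPA+ cells in 1.43% and 1.49%. FOXP3, the regulator of regulatory T cells, was found in 4 of 208 (1.92%) and 6 of 359 (1.67%) cells and in no B cell or SIRPA+ cell.

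BCL6 and CXCR5, the regulator and the homing receptor of follicular helper cells, were rare in blood CD4 T cells. BCL6 was found in 0.962% and 1.11% of CD4 T cells, below B cells (1.55% and 4.13%) and SIRPA+ cells (5.71% and 13.9%), and CXCR5 in 2.88% and 1.95%, against 14.0% and 17.5% of B cells, which use it to enter follicles. Of cytokines, IFNG was found in 5.77% and 6.13% of CD4 T cells against 0.988% and 0.735% of B cells, and IL2 in 0 and 3 cells. IL4, IL17A, IL22 and the receptor CCR6 were at 0 UMIs in the CD4 T cells, which allows a share of cells with a UMI of up to 1.44% in pig 1 and 0.836% in pig 2 by the same floor of 3 counts, and CCR6 was at 0 in B cells as well. IL10 was found in 4.33% and 5.85% of CD4 T cells, below its share in SIRPA+ cells (11.4% and 24.9%). ISG15, an interferon-induced gene, stood at 424 CPM in pig 1 and 1838 CPM in pig 2, a difference between single libraries with no test. Within each pig it was lower in CCR7+ cells, at 283 and 1453 CPM against 568 and 2230 CPM, and was called lower with the block (edgeR adjusted p = 3.77e-03).

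Blood T cells with CD8B and without CD4 (429 and 651 cells) were the αβ T cells set beside the CD4 T cells. Against them 26 of 7481 genes were higher (0.348%) and 28 lower (0.374%) in CD4 T cells, and with the block 175 (2.34%) and 172 (2.3%). CD40LG led the helper side, at 82.1 and 111 CPM in CD4 T cells against 1.38 and 4.86 CPM in CD8B+ T cells (log2 4.80, SE 0.411, edgeR adjusted p = 0.0204), and it was detected in 24.5% and 33.7% of CD4 T cells and in 0.212% and 0.276% of B cells. CCR4, a chemokine receptor of type 2, regulatory and skin-homing cells, stood at 45.5 and 24.6 CPM against 1.84 and 1.43 CPM (log2 4.36, SE 0.465, edgeR adjusted p = 0.0337). IL6R, a chain of the IL-6 receptor, stood at 87.6 and 97.3 CPM against 5.98 and 10.6 CPM (log2 3.42, SE 0.276, edgeR adjusted p = 0.0204).

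None of the 3 genes overlapped between the cell types, and GPR183, SLAMF1, IFNGR2, LGMN, NPL, ZC3H12D and FAM89A completed the 10 largest rises. Of 13 naïve genes 3 were called higher in CD4 T cells without the block (IL7R, LEF1 and TCF7) and 9 with it, none lower, with a median log2 difference of 0.77 against -0.0028 over all genes, where 0.348% of all genes were called higher at any size without the block and 5.35% with it. IL7R stood at 81.0 and 122 CPM against 21.2 and 21.2 CPM (log2 2.28, SE 0.251, edgeR adjusted p = 0.0337). Of 8 regulatory genes TNFRSF4, the receptor OX40, was called higher without the block. With it CTLA4, IL2RA and TNFRSF18 were also called higher and ENTPD1, an ectonucleotidase, lower, where 5.35% of all genes were called higher and 5.57% lower. TNFRSF4 was at 8.87 and 11.09 CPM against 0.46 and 0.572 CPM.

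The cytotoxic side belonged to the CD8B+ T cells. Of 26 type 1 and cytotoxic entries 5 were called lower in CD4 T cells without the block and 22 with it, where 0.388% and 5.57% of all genes were, and CXCR3, a receptor for interferon-induced chemokines, was called higher with it (median log2 -1.76). Both entries named GZMA were counted among the 26 and among the 22. PRF1, perforin, stood at 23.3 and 32.0 CPM in CD4 T cells against 161 and 318 CPM (log2 -3.09, SE 0.377, edgeR adjusted p = 0.0353). CCL5 stood at 3280 and 1588 CPM against 16340 and 16420 CPM (log2 -2.76, SE 0.317, edgeR adjusted p = 0.0337), and NKG7 at 390 and 427 CPM against 1483 and 2102 CPM (log2 -2.14, SE 0.207, edgeR adjusted p = 0.0254). UCHL1, JAML, FER, GZMM, CCRL2, PLEK, RHOQ and NCR3 were among the 10 largest falls.

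Markers of other cells also differed between CD4 and CD8B+ T cells. With the block JCHAIN, a plasma cell gene and the 1 B cell marker tested, was called lower in CD4 T cells, as were FCER1G of 4 natural killer cell genes and PPBP of 2 platelet genes. HBM, a globin and 1 of 4 erythroid genes, was called higher, and none of 7 monocyte genes was called. None of these markers was called without the block. Of all genes 5.35% were called higher and 5.57% lower at any size with the block. JCHAIN stood at 19.96 and 20.3 CPM against 92.9 and 17.4 CPM, with opposite order in the pigs, and the B cell list summed to 27.7 and 34.5 CPM against 108.6 and 30.6 CPM. PPBP stood at 28.8 and 165 CPM against 34.96 and 361 CPM, and HBM at 205 and 65.3 CPM against 199 and 6.29 CPM. The part of such RNA in this comparison was not tested.

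The same gate was then applied to the ileum. CD4 T cells made 2.86% and 2.31% of PP cells and 1.18% and 2.25% of non-PP cells (210, 159, 46 and 85 cells), against 3.23% and 5.28% of PBMCs. CCR7 was detected in 51.7% ± 4.47 (SD, n = 2 libraries) of blood CD4 T cells and in 16.6% ± 12.1 (n = 4 libraries, 2.17% to 29.6%) of ileal ones, with no overlap. The exact two-sided permutation p was 0.133, the smallest that 2 against 4 libraries allow, and 0.222 after adjustment over 5 comparisons. CD8A was detected in 22.4% ± 6.43 of blood and 18.8% ± 5.70 (15.1% to 27.1%) of ileal CD4 T cells, which overlapped (exact permutation p = 0.533, adjusted 0.666). Blood CD4 T cells were deeper, with ileal medians of 2070 to 2469 UMIs, and after thinning the order of the means turned, at 8.25% ± 2.61 in blood and 10.07% ± 3.95 in ileum (exact permutation p = 0.667, adjusted 0.667). CCR7 after thinning was at 28.8% ± 3.36 in blood and 8.66% ± 6.25 in ileum, with no overlap (exact permutation p = 0.133, adjusted 0.222). Ileal libraries of 1 pig are not independent animals, and fewer cells of a kind cannot be told apart from less RNA per cell here.

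More genes were called between blood and ileal CD4 T cells than between the classes within blood. Of 6000 genes, 183 were higher (3.05%) and 372 lower (6.2%) in blood, and with the block 289 (4.82%) and 461 (7.68%). Tissue, cell isolation and library cannot be told apart in this comparison, since every blood library came from density gradient tubes and every ileal library from digested tissue that then passed Percoll and dead cell removal.

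Some naïve and recirculation genes were called higher in blood. KLF2 stood at 451 and 467 CPM against 49.3 and 52.3 CPM in ileum (log2 3.21, SE 0.187, edgeR adjusted p = 5.53e-05), and LEF1 at 135 and 144 CPM against 53.9 and 66.8 CPM (log2 1.25, SE 0.216, edgeR adjusted p = 7.20e-03). Of 13 naïve and recirculation genes 6 were called higher in each fit, none lower (median log2 0.77 against 0.019 over all genes, where 3.52% of all genes were called higher at any size without the block and 9.17% with it). TCF7 was not among them, at 212 and 240 CPM against 204 and 180 CPM. Also higher in blood were S100A4 (1091 and 1068 CPM against 67.7 and 134 CPM), ITGB1 (233 and 216 CPM against 42.4 and 43.6 CPM), CX3CR1, S1PR5, an exit receptor of effector cells, and CCR3. Type 1 genes were split, 8 called higher and 4 lower of 22 entries without the block and 12 and 5 with it, where 7% of all genes were called lower without the block and 11.8% with it. Both entries named GZMA were counted among the 22. Of 4 natural killer cell genes 2 were called higher in blood without the block. With it 3 were called higher (FCER1G, HCST and TYROBP) and 1 lower (FCGR3A). TBX21 was higher in blood (57.7 and 43.1 CPM against 5.74 and 17.4 CPM, log2 2.19, SE 0.443, edgeR adjusted p = 0.0153) and IFNG was lower (21.1 and 17.9 CPM against 197 and 78.5 CPM, log2 -2.80, SE 0.409, edgeR adjusted p = 3.34e-03).

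Lower in blood were genes of follicular help and regulation, while antigen-experience genes were split, with 9 of 17 called higher and 7 lower in each fit (median log2 0.95), where 3.52% of all genes were called higher without the block and 9.17% with it. CTLA4 stood at 24.4 and 17.9 CPM in blood against 272 and 230 CPM in ileum (log2 -3.57, SE 0.220, edgeR adjusted p = 6.01e-05), PDCD1, the receptor PD-1, at 55.5 and 43.1 CPM against 438 and 336 CPM (log2 -2.95, SE 0.204, edgeR adjusted p = 1.17e-04), and BCL6 at 2.22 and 2.46 CPM against 39.0 and 42.1 CPM (log2 -3.99, SE 0.424, edgeR adjusted p = 7.56e-04). The classes did not overlap for these 3 genes. Of 8 follicular help genes 7 were called lower in each fit and of 8 regulatory genes 5 without the block and 7 with it, with median log2 differences of -2.82 and -2.18, where 7% of all genes were called lower at any size without the block and 11.8% with it. The B cell list moved the same way, at 27.7 and 34.5 CPM in blood against 790 and 222 CPM in ileum, led by JCHAIN. The part of B cell RNA in the follicular help genes was not tested. IL22 was at 0 UMIs in blood against 139 and 69.8 CPM in ileum, at least 91.2-fold lower when 3 UMIs over both blood sums are taken as the floor. GATA3 was not called, at 69.9 and 62.8 CPM against 63.1 and 59.6 CPM (log2 0.14, SE 0.219).

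Immediate early genes, which respond within minutes to activation and to handling of cells, were lower in blood, 7 of 8 by their calls in each fit (median log2 -3.77), where 7% of all genes were called lower without the block and 11.8% with it. FOS stood at 4.44 and 4.93 CPM in blood against 429 and 378 CPM in ileum (log2 -6.34, SE 0.237, edgeR adjusted p = 4.28e-06), and in B cells it was likewise 10.6 and 19.5 CPM in blood against 291 and 193 CPM in PP. CXCR4, a chemokine receptor, stood at 11.09 and 12.3 CPM against 546 and 452 CPM, and CD69 at 18.9 and 64.7 CPM against 527 and 503 CPM. Within ileum FOS ranged from 64.9 CPM in non-PP of pig 2 to 570 CPM in PP of pig 2. The part of the cell isolation in these differences was not tested.

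Some of the largest differences were genes of other cell types. HBB stood at 17160 and 3003 CPM in blood CD4 T cells against 10.3 and 2.91 CPM in ileum, and PPBP, a platelet chemokine, at 28.8 and 165 CPM against 0. FABP6, of enterocytes, stood at 1.11 and 0 CPM in blood against 3641 and 157 CPM in ileum, where 2726 of the 2955 UMIs of non-PP pig 1 lay in 1 cell, and SPAI-2 was at 0 in blood, with 994 of the 999 UMIs of non-PP pig 2 in 1 cell. JCHAIN, the 1 B cell marker tested, was called lower in blood in each fit, at 19.96 and 20.3 CPM against 759 and 199 CPM. In PP of pig 1, 539 of the 662 JCHAIN UMIs lay in 1 cell. Without the cells in which such a gene passed 5% of UMIs, 183 genes were higher and 351 lower in blood. Of 3 monocyte genes AIF1 was called higher and CST3 lower in each fit, and IRF8, the 1 dendritic cell gene tested, lower. Of 8 T cell markers 2 were called lower in blood without the block and 6 with it. Of all genes 3.52% were called higher and 7% lower at any size without the block, and 9.17% and 11.8% with it. The part of RNA of other cell types was not tested beyond leaving out the cells rich in it.

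**Figure D5:**
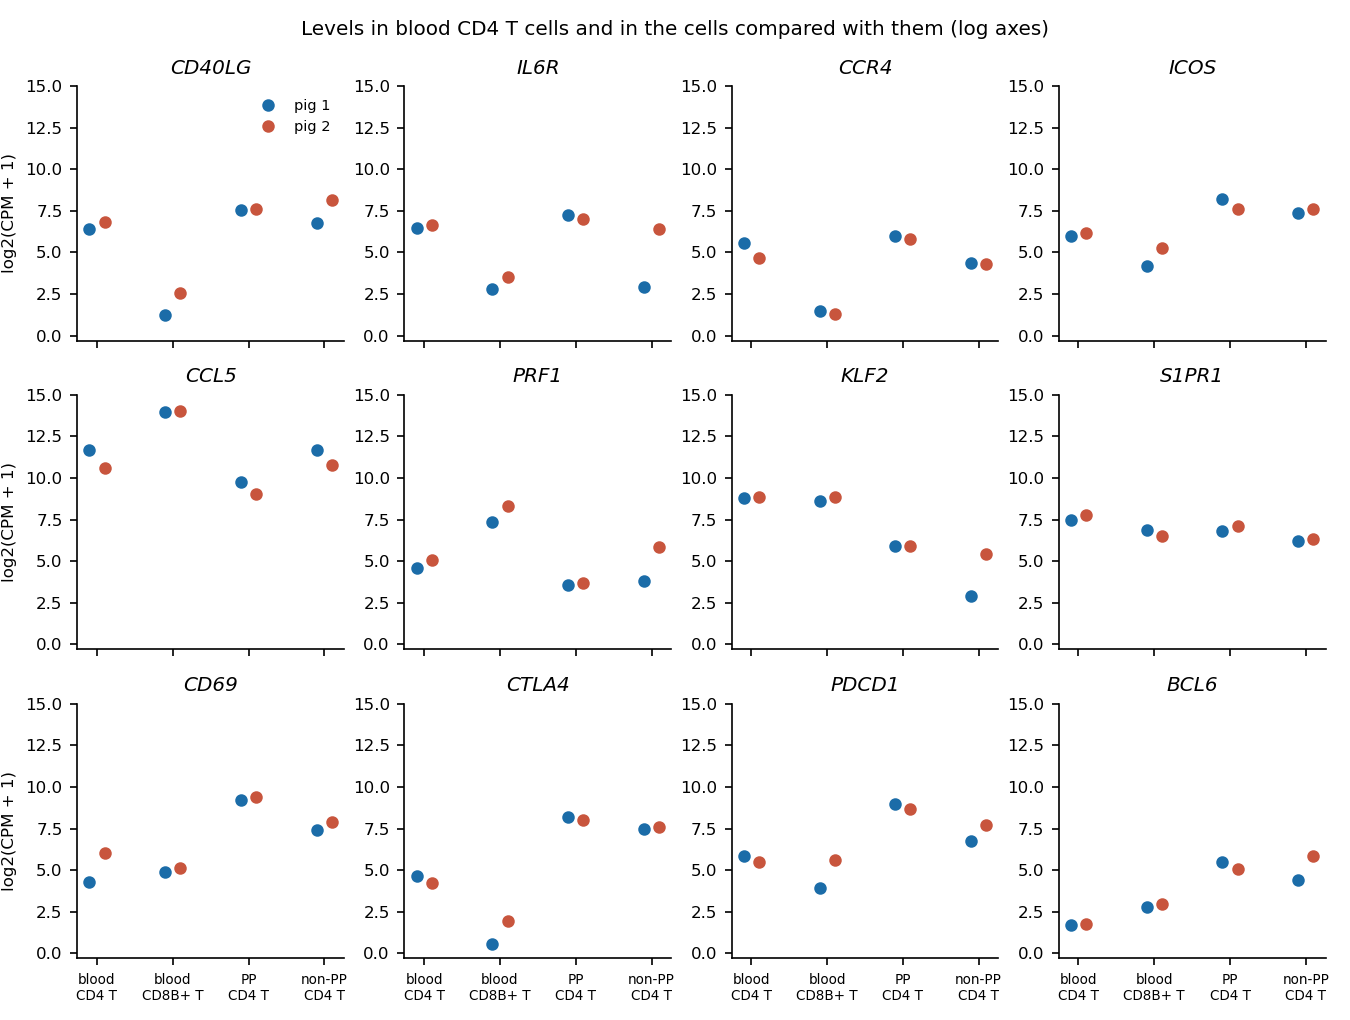
Level of 12 genes as log2(CPM + 1) (y axes) in blood CD4 T cells, blood CD8B+ T cells and CD4 T cells of PP and non-PP ileum (x axis), with 1 point per library of pig 1 (blue) and pig 2 (red). CD40LG, IL6R and CCR4 set blood CD4 T cells apart from CD8B+ T cells, and KLF2, CD69, CTLA4, PDCD1 and BCL6 set them apart from ileal CD4 T cells, where non-PP of pig 1 rests on 46 cells.

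The CD8A difference itself was compared between blood and ileum. In ileum TCF7 stood at 265 and 174 CPM in CD8A+ cells against 175 and 182 CPM in CD8A- cells (log2 0.28, SE 0.240), so that the ileal classes overlapped while those of blood did not. As an interaction, edgeR called 0 of 5012 genes without the block, with 221 at an unadjusted p under 0.05 and 0 called by DESeq2. On simulated counts that edgeR test recovered 1 of 100 genes changed by log2 2, and 63 of 100 with the block. So 0 calls do not show that the difference was alike in the tissues. With the block edgeR called TCF7 alone, for which the difference in blood minus that in ileum was -1.90 on the log2 scale (SE 0.294, edgeR adjusted p = 0.0203, against 0.305 without the block). On thinned counts the blocked fit called CD52 and GNLY and not TCF7, the blocked fit without TOP2A and UBE2C cells called 1 gene higher (GNLY) and 0 lower, and DESeq2 with the block called 0 genes.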

How the data were processed

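Single-cell 3′ RNA-seq (10x Genomics, version 2 chemistry) was read as the raw UMI counts deposited by the authors for every barcode. Per the file headers and the study's methods the authors made them with Cell Ranger 4 (4.0.6 per the labels) on Sus scrofa 11.1 with a modified Ensembl annotation, before ambient RNA and doublets were removed. The 4 runs of a library were 1 sample. Cells had at least 1250 UMIs, at least 550 genes and at most 12.5% mitochondrial UMIs, and thinned cells were drawn down to 1250 UMIs. A Scrublet score (scanpy 1.11.5) with a threshold of 0.25 marked doublets, which stayed in.

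Counts were summed per pig and class and tested with edgeR 4.0.16 (filterByExpr, TMM, quasi-likelihood, Benjamini-Hochberg) in R 4.3.3, with DESeq2 1.42.0 as an alternative. The 8 gate genes were left out of the tests. CPM is UMIs scaled to the summed UMIs of the cells. Same-pig sums deviated together (r = 0.521, 0.446, 0.387 and 0.546 for the CD8A, CCR7, ileum and CD8B+ comparisons), and the labels give the animal, so the pig also served as a block. Shares used exact Clopper-Pearson intervals (Python 3.11.15, scipy 1.17.1). Scripts were tested on simulated data.

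The genes named were the 10 largest rises and falls among called genes with the same sign in both pigs and at least 20 UMIs in each pig's higher class, plus listed genes. The same rule was applied to the blocked fit after the data were seen. The members and lists were chosen with earlier results of these data known. Gene symbols came from the matrices (17733 of 25880 entries), a name table (969) and the study's list (19). Sequences were not used here, and some genes of the lists are not reported here.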

Additional observations from a re-analysis of the deposited data

Results flagged for a closer look

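The difference of TCF7 between CD8A+ and CD8A- CD4 T cells was unlike in blood and ileum. With the pig as a block the blood difference minus the ileal one was -1.9 on the log2 scale (edgeR adjusted p = 0.0203), and TCF7 was lower in CD8A+ cells of both pigs in blood and higher in pig 1 and lower in pig 2 in ileum. Without the block the value was -1.88 with an edgeR adjusted p of 0.305, and the DESeq2 adjusted p, also without the block, was 0.608. With the block DESeq2 called 0 genes, and edgeR without the TOP2A and UBE2C cells called 1 gene higher (GNLY) and 0 lower. On thinned counts the blocked value was -2.01 with an edgeR adjusted p of 0.326, and under the stricter gate -2.22 with 0.464.

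The whole ileum library of pig 1, labelled female, held Y-linked UMIs at 207 CPM over 4 genes, against 0 in the PBMC library of that pig and between 119 and 226 CPM in the libraries of the male. It entered only the alternative of the blood and ileum comparison with all 3 dissections, and its source was not tested.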

How the results depend on the processing

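Called values of the genes named by the rule kept their sign under the alternatives run. Among values not called, GATA3 changed sign under the stricter gate in the CD8A comparison and on thinned counts in the CCR7 comparison and HBB had a log2 difference between CD8A classes of 0.67 without the block and -0.38 with it. HLA-DRA, called only with the block, was lower in CD8A+ cells of pig 1 and higher in those of pig 2. Leaving out pig 1 or pig 2, which allows no test, moved 11 and 7 named values by at least the SE of the log2 difference in the fit without the block (12 and 16 moved less) for CD8A, 12 and 15 (15 and 12) for CCR7, 8 and 11 (23 and 20) against CD8B+ T cells and 16 and 14 (8 and 10) for ileum. The values of a single pig were from CPM without TMM scaling, unlike the fitted ones, so part of a move can be scaling. Among values of named genes under the other single alternatives, 154 stayed on their side of the threshold, 81 gained a call and 6 lost it in the CD8A comparison, 198, 27 and 73 in the CCR7 comparison, 206, 36 and 20 against CD8B+ T cells, and in the ileum comparison 245 stayed and 6 lost it. The counts of called genes moved far more, and the cause of each shift below was not tested. The samples of a pair came from the same pig, and with the replicate block the counts higher and lower were 84 and 79 for CD8A (0 and 1 without it), 47 and 121 for CCR7 (8 and 20), 289 and 461 for ileum (183 and 372), and 175 and 172 against CD8B+ T cells (26 and 28), while the tissue by CD8A interaction gave 1 lower (0 without it). The alternatives within the blocked fit, the fits without HBB-, PPBP-, FABP6-, SPAI-2- or JCHAIN-rich cells and those without TOP2A or UBE2C cells were chosen after seeing the data.

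Without the block, the CD8A counts higher and lower were 7 and 8 by DESeq2, 72 and 65 with no filter on low counts, 13 and 15 without doublets, 5 and 5 under the stricter gate of 2 UMIs for CD3E and CD4, 10 and 2 with 2 or more CD8A UMIs for the positive class, and 10 and 15 without cells rich in RNA of another type. RLE size factors, thinning, cells with and without CCR7 taken alone, and leaving out TOP2A or UBE2C cells each gave 0 lower. The CCR7 counts were 5 and 12 with RLE, 61 and 116 with no filter, 2 and 8 on thinned counts, 14 and 36 without doublets, 0 and 1 under the stricter gate, 2 and 2 with 2 or more CCR7 UMIs, 1 and 5 within CD8A- cells, 0 and 0 within CD8A+ cells, and 3 and 13 without TOP2A or UBE2C cells, with 31 lower without cells rich in other RNA. The ileum counts were 109 higher by DESeq2, 325 and 605 with no filter, 57 and 131 under the stricter gate, 85 higher against non-PP alone and 242 lower on thinned counts. Against CD8B+ T cells they were 44 and 51 by DESeq2, 134 and 155 with no filter, and 8 and 12 under the stricter gate. With no filter the CD8A by CCR7 interaction gave 3 higher and the tissue by CD8A interaction 4 higher and 2 lower.

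With the block, the CD8A counts were 14 and 10 by DESeq2, 17 and 8 on thinned counts, 0 and 0 under the stricter gate, 0 and 0 within CCR7- cells, 11 and 4 within CCR7+ cells, and 22 and 16 without TOP2A or UBE2C cells, with 19 lower for 2 or more CD8A UMIs. The CCR7 counts were 5 and 22 by DESeq2, 16 and 58 on thinned counts, 0 and 2 under the stricter gate, 15 and 49 within CD8A- cells and 0 and 3 within CD8A+ cells, with 72 higher without doublets. The ileum counts were 82 and 217 by DESeq2 and 106 and 188 under the stricter gate, with 297 lower on thinned counts. Against CD8B+ T cells they were 44 and 57 by DESeq2 and 59 and 87 under the stricter gate, with 91 higher on thinned counts.

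The mean share with CD8A was 22.4%, 8.25% on thinned counts and 29.9% under the stricter gate, and that with CCR7 51.7%, and 28.8% thinned. CCR7 among CD8A+ cells went from 26.5% to 15.6% and among CD8A- cells from 59.1% to 30.1% when thinned. CD4 T cells made 4.25% of PBMCs, 1.27% when the gate was applied again to thinned cells and 0.872% under the stricter gate. Leaving out either pig gave 17.8% to 26.9% for CD8A, 48.6% to 54.9% for CCR7, 23.2% to 29.7% for CCR7 among CD8A+ cells, 57.9% to 60.3% among CD8A- cells and 3.23% to 5.28% for the CD4 T cell share. Gene counts without 1 pig were not run, since no residual degree of freedom is left. Most CD4 T cells held 1 CD4 UMI, so cells with CD4 protein and no CD4 UMI may have been missed, which was not tested. The summed classes of 56 to 295 cells limit the genes that could be tested.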
